A study of Mus musculus with 8 samples.

Results

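The neuregulins and the ErbB receptors are 8 genes, taken by symbol from the count files: the ligands Nrg1, Nrg2, Nrg3 and Nrg4, and the receptors Egfr, Erbb2, Erbb3 and Erbb4. They were found in all 8 libraries among 55341 gene symbols, and all 8 passed the filter on low counts that left 17355 genes for testing. Nuclear RNA came from sorted nuclei of cortical GABAergic neurons, 1 mouse per library, in which Cre recombinase had switched on a fluorescent nuclear reporter so that a cell sorter could collect the nuclei. In the PTU group (mice 9 to 12, n = 4) the pregnant mothers had received propylthiouracil, which blocks thyroid hormone synthesis. The PTU+TH group (mice 13 to 16, n = 4) had the same propylthiouracil exposure and was injected intraperitoneally with thyroid hormone (TH), 24 h ahead of brain collection. Both groups thus carry the reporter and are described as hypothyroid, the PTU mice as juvenile, and the comparison shows what differs a day after the hormone is given. The labels name neither the Cre driver nor the strain, sex or litter.

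Neuregulins are growth factors with an EGF-like domain, made as membrane proteins and released or exposed by proteases. They bind ErbB3 and ErbB4, receptor tyrosine kinases that signal as pairs. ErbB2 has no known ligand and serves as the partner of the others, ErbB3 has little kinase activity of its own, and EGFR responds to EGF-type ligands. In the cortex ErbB4 is found mainly on GABAergic interneurons, many of them of the parvalbumin class, where neuregulin signalling is known for its part in their synapses, while ErbB3 is typical of the oligodendrocyte lineage.

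Library totals were 21.8 M to 29.1 M counts. The sorted cells were checked against markers. Summed over 6 GABAergic marker genes, the level was 2448 to 2883 CPM (counts as a share of the library total, on the usual CPM scale, with TMM scaling between libraries) in PTU and 2286 to 2486 after TH, with Dlx1 listed at 0. The 10 excitatory neuron markers summed to between 244 and 280 CPM in the PTU libraries and to between 242 and 329 CPM after TH. The astrocyte list gave 127 to 247 and 130 to 374 CPM, microglia 50.4 to 71.2 and 60.8 to 80.6 CPM, and endothelium 33.5 to 152 and 33.6 to 108 CPM, PTU first in each pair, with Gfap and P2ry12 listed at 0. Others of these lists had counts, such as Aqp4 at a mean of 7.86 CPM and Csf1r at 8.30 CPM. A listed 0, as also for Dlx1, need not mean that a cell type was absent, and its origin was not tested. Counts of Y-linked genes were 0 in mice 15 and 16 and above 0 in the other 6 libraries. Both libraries at 0 are PTU+TH, so the presence of Y-linked counts is partly confounded with treatment. The number of genes called was 368 in all, 129 with that presence as a covariate and 58 in the 6 libraries alone.

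Erbb4 and Nrg3 were among the most abundant transcripts of these nuclei. Erbb4 (GRCm38 chromosome 1, 68032186 to 69108059, minus strand) averaged 4091 ± 854 CPM over the 8 libraries (SD), the rank 5 of all symbols, and Nrg3 (chromosome 14, 38368952 to 39473088, minus strand) 2556 ± 570 CPM, rank 13. Nrg1 (chromosome 8, 31814551 to 32884029, minus strand) followed at 633 ± 170 CPM, Egfr (chromosome 11, 16752203 to 16918158, plus strand) at 103 ± 16.1 CPM and Nrg2 (chromosome 18, 36017652 to 36197380, minus strand) at 97.3 ± 20.5 CPM. The other members were rare: Nrg4 (chromosome 9, 55220222 to 55326844, minus strand) at 5.73 ± 0.98 CPM, Erbb2 (chromosome 11, 98412470 to 98437716, plus strand) at 1.09 ± 0.49 CPM and Erbb3 (chromosome 10, 128567523 to 128589652, minus strand) at 0.62 ± 0.58 CPM (SD, n = 8 each). Together the members took 0.576% to 0.901% of each library's counts. A gene-level count does not separate the isoforms, so the types of Nrg1 cannot be told apart.

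The members differ widely in gene body length, and this bears on their counts. Nrg3, Erbb4 and Nrg1 have bodies of 1104, 1076 and 1069 kb, in which exons make up 0.617%, 1.15% and 0.968% of the bases, the rest being intron. Nrg2, Egfr and Nrg4 measure 180, 166 and 107 kb, and Erbb2 and Erbb3 25.2 and 22.1 kb, with exons over 20.6% and 27.2% of the body. All 19 genes that lie wholly inside a member, such as Nrg3os and Egfros, were listed at 0 in the 8 libraries, 9 of them on the opposite strand, as were all 1325 protein-coding genes with no base free of other genes. Counting over whole gene bodies with shared bases left out would put genes with no free base at 0. The counting rule is not given and was not tested. Across 11478 genes with a body at least 90% free of other genes, mean counts had a Spearman rho of 0.39 with body length and 0.46 with summed exon length, a description over genes that are not independent. Levels are therefore given per kb of body and of exon. Per kb of body Erbb4 stood at 3.80 ± 0.79 CPM per kb and Nrg3 at 2.31 ± 0.52 CPM per kb (SD, n = 8), with Erbb4 higher in 8 of 8 libraries. Egfr at 0.620 ± 0.097, Nrg1 at 0.592 ± 0.159 and Nrg2 at 0.541 ± 0.114 CPM per kb came next (SD, n = 8), and their ranges overlapped, Egfr being above Nrg1 in 4 of 8 libraries. Nrg4, Erbb2 and Erbb3 lay at 0.0537 ± 0.0092, 0.0431 ± 0.0192 and 0.0279 ± 0.0260 CPM per kb (SD, n = 8) and overlapped as well. Per kb of exon the order of the leading pair turned, with Nrg3 at 375 ± 83.7 above Erbb4 at 331 ± 69.1 CPM per kb in 8 of 8 libraries, and Egfr fell behind Nrg1 and Nrg2 (9.09 ± 1.42 against 61.2 ± 16.4 and 31.0 ± 6.53 CPM per kb; SD, n = 8).

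**Figure D1:**
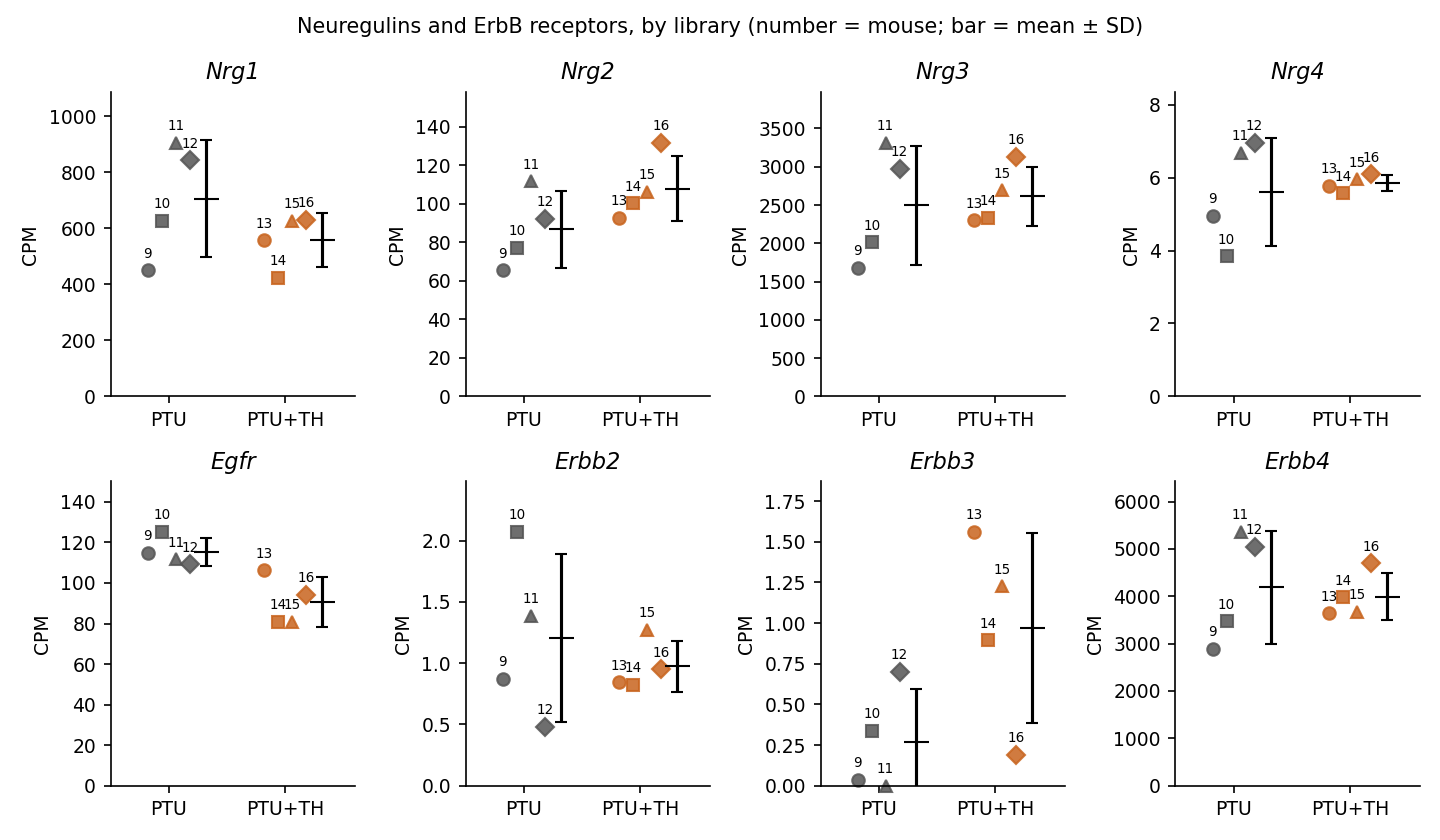
Level of each member in each library, in CPM on a linear axis from 0, with grey symbols for PTU, orange symbols for PTU+TH and the mouse number above each; the bars give the mean ± SD of 4 libraries, cut at 0 for Erbb3. Egfr is the member whose groups do not overlap, with PTU between 109 and 125.2 CPM and PTU+TH between 80.8 and 106 CPM, while Nrg1, Nrg3 and Erbb4 spread widely within PTU.

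Promoter windows are shown for 4 members, the abundant pair Nrg3 and Erbb4, Egfr, and the rare Nrg4, because thyroid hormone acts through receptors that bind short DNA elements. They come from RefSeq (GRCm38.p6) and cover the 250 bases before the start site, 5′ to 3′ on the strand of the gene. The windows are chr14:39473089-39473338 (minus) for Nrg3, chr1:69108060-69108309 (minus) for Erbb4, chr11:16751953-16752202 (plus) for Egfr and chr9:55283626-55283875 (minus) for Nrg4, which lies inside the annotated gene body. Capitals mark the hexamer AGGTCA on either strand (AGGTCA or TGACCT), the core recognised by thyroid hormone receptors and by other nuclear receptors.
Nrg3: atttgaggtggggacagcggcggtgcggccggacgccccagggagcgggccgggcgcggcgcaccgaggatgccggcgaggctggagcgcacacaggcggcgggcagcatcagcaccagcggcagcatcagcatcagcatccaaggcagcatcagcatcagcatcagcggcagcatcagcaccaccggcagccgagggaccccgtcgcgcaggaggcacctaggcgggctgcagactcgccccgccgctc
Erbb4: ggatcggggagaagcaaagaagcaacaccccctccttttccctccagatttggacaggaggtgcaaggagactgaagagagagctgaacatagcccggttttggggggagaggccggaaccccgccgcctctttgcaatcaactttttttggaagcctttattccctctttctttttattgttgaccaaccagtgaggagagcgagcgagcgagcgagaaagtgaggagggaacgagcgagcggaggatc
Egfr: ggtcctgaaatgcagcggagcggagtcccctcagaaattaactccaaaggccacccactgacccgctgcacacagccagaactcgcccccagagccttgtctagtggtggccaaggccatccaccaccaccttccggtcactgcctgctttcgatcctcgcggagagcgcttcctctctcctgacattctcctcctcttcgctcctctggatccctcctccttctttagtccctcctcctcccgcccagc
Nrg4: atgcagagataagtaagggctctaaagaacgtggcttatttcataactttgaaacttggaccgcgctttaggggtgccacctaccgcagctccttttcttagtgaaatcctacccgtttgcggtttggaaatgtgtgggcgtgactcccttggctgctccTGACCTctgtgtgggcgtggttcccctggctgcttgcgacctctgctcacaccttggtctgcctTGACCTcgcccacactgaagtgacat

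The hexamer was found 2 times in the Nrg4 window, 90 and 26 bases before the start, and 0 times in those of Nrg3, Erbb4, Egfr and Erbb2. Of 32851 windows of the same length, 14.0% held it at least once and 1.34% at least 2 times. The direct repeat with a spacer of 4 bases, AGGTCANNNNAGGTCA on either strand, which contains the hexamer, was in 0 of the 5 member windows and in 5 of all windows. Nrg1, Nrg2 and Erbb3 had no window in the set used, so they were not searched. A match is a string of letters and not a site shown to be bound, and these windows leave out distal sequence. The Nrg3 window held 27 CpG dinucleotides, against 16 for Erbb2, 12 for Erbb4, 11 for Egfr, 10 for Nrg4 and a median of 6 over all windows.

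No member passed the test between PTU+TH and PTU after adjustment over all genes. The edgeR quasi-likelihood test called 0 of 8 members at an adjusted p under 0.05, beside 368 of 17355 genes tested (2.12%; 1.49% higher and 0.634% lower), and 2 of the 8, Egfr and Erbb3, had an unadjusted p under 0.05, beside 12.8% of all genes. DESeq2 and limma voom also called 0 of 8. The groups did not overlap for 1 member, beside 8.71% of all genes tested (4.68% higher and 4.03% lower). In bulk nuclei fewer cells of a type and less RNA per cell cannot be told apart.

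Among the receptors, Erbb4, the receptor of the interneurons, had 2889, 3467, 5356 and 5043 CPM in PTU mice 9 to 12, against 3637, 3973, 3670 and 4691 CPM after TH in mice 13 to 16. The PTU libraries lay on both sides of all PTU+TH libraries. The fold was 0.953 with a 95% interval from 0.665 to 1.37 (-0.07 ± 0.24 SE as a log2 fold change, edgeR adjusted p = 0.961), so that a moderate change in either direction lies within the error. The sign turned when a single library was dropped in 2 of 8 cases, without PTU mouse 11 or mouse 12. Markers of the parvalbumin class, in which Erbb4 is typical, summed to 397 to 516 CPM in the PTU libraries and 453 to 582 CPM after TH. Of these 7 genes 3 were called higher (Syt2, Kcna1 and Nefh), beside 1.49% of all genes tested, while Lhx6 and Tac1 had log2 fold changes of -0.07 and -0.08. Pvalb itself, at a mean of 2.17 CPM, had 0.50 and Kcnc1 had 0.34, both without a call. In the somatostatin class 1 of 5 markers was called lower (Calb1, -0.73) and in the Vip class 1 of 5 (Htr3a, -1.11), beside 0.634% of all genes, and in the Lamp5 class 0 of 5. The uncalled somatostatin class markers went both ways, with Sst at -0.09, Crhbp at -0.48, Chodl at 0.31 and Nos1 at 0.25. Those of the Vip class were Vip at -0.29, Calb2 at -0.28, Prox1 at -0.28 and Crh at 0.06. Summed levels in PTU and PTU+TH were 456 to 603 and 392 to 457 CPM for the somatostatin class, 208 to 296 and 190 to 211 CPM for Vip, and 1175 to 1328 and 1019 to 1178 CPM for Lamp5. The part of these markers in the Erbb4 values was not tested.

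Egfr, the receptor of EGF and related ligands, read 115, 125.2, 112 and 109 CPM in the PTU libraries against 106, 80.8, 80.9 and 94.3 CPM after TH. All 4 PTU+TH libraries lay below all 4 PTU libraries, and the nearest pair, PTU mouse 12 and PTU+TH mouse 13, was 109 against 106 CPM. The log2 fold change was -0.35 (SE 0.10, 95% interval -0.57 to -0.13), with an unadjusted p of 0.00451 and an edgeR adjusted p of 0.117. It was negative under all 21 alternatives, with adjusted p-values from 0.0504 (DESeq2) to 0.549 (the 6 libraries with Y-linked counts).

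Erbb2, the co-receptor without a ligand of its own, had 24, 55, 28 and 11 counts in the PTU libraries against 20, 24, 28 and 20 counts after TH. The groups overlapped, and the interval of the log2 fold change (-0.31, SE 0.43) ran from -1.23 to 0.61 (edgeR adjusted p = 0.861). Without PTU mouse 10, the library with 55 counts, the estimate was 0.10.

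Erbb3 had 1, 9, 0 and 16 counts in the PTU libraries against 37, 26, 27 and 4 counts after TH. In PTU+TH 3 libraries were above the PTU range and mouse 16 was within it. The fitted log2 fold change was 1.83 (SE 0.83, 95% interval 0.01 to 3.65, edgeR adjusted p = 0.386). It ran from 1.46 without PTU mouse 9 to 2.84 without PTU mouse 12, which had the most counts of its group, and was 2.57 with limma voom. Markers of the lineage in which Erbb3 is typical were present in each library. The 8 oligodendrocyte genes summed to 124, 116, 101 and 96.6 CPM in the PTU libraries against 126, 95.3, 195 and 119 CPM after TH. The 7 precursor genes summed to 28.3, 26.3, 16.0 and 9.18 CPM and to 23.8, 12.2, 40.4 and 16.3 CPM, with Gpr17 and C1ql1 listed at 0. Their part in the Erbb3 counts was tested only as a covariate, and with it the log2 fold change was 1.92 (edgeR adjusted p = 0.394).

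Among the ligands, Nrg3, which binds ErbB4, had 1680, 2015, 3314 and 2977 CPM in PTU mice 9 to 12, against 2302, 2334, 2694 and 3133 CPM after TH in mice 13 to 16. All PTU+TH libraries lay inside the PTU range. The fold was 1.05 with a 95% interval from 0.737 to 1.49 (0.07 ± 0.24 SE as a log2 fold change, edgeR adjusted p = 0.961), and its sign turned without PTU mouse 9 or 10 or PTU+TH mouse 16.

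Nrg1, a ligand of ErbB3 and ErbB4, read 451, 627, 906 and 844 CPM in the PTU libraries against 557, 424, 627 and 630 CPM after TH. The groups overlapped, with PTU mice 11 and 12 above all others. The log2 fold change was -0.34 (SE 0.21, 95% interval -0.79 to 0.12, edgeR adjusted p = 0.581). It ran from -0.19 without PTU mouse 11 to -0.50 without PTU mouse 9, and was -0.20 with oligodendrocyte markers and -0.53 with the presence of Y-linked counts as a covariate.

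Nrg2, which binds the same receptors, had 65.5, 77.3, 112 and 92.4 CPM in the PTU libraries against 92.8, 100, 106 and 132 CPM after TH. PTU mouse 11 was the library that overlapped with PTU+TH. Its log2 fold change of 0.31 (SE 0.16, 95% interval -0.03 to 0.66) did not pass (edgeR adjusted p = 0.448) and was 0.16 with the presence of Y-linked counts as a covariate. It was 0.21 without PTU mouse 9 and 0.20 without PTU+TH mouse 16, and larger at 0.46 without PTU mouse 11 (edgeR adjusted p = 0.155) and at 0.45 with oligodendrocyte markers as a covariate (edgeR adjusted p = 0.153).

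Nrg4, a ligand of ErbB4 best known from fat tissue, rested on 102 to 159 counts per PTU library and 128 to 162 after TH. It read 4.95, 3.84, 6.68 and 6.95 CPM and 5.78, 5.57, 5.95 and 6.09 CPM, with the PTU+TH libraries inside the PTU range (0.06 ± 0.21 SE as a log2 fold change, edgeR adjusted p = 0.958). Without PTU mouse 10, the lowest, the estimate was -0.08.

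The spread within PTU followed gene body length. Relative to its mean over the 8 libraries, the median protein-coding gene with a body of 500 kb or more (225 genes) deviated by -0.48, -0.23, 0.36 and 0.22 on the log2 scale in PTU mice 9 to 12 and by -0.12, -0.12, 0.08 and 0.29 in PTU+TH mice 13 to 16. For the 2915 genes under 10 kb the same medians were 0.19, 0.05, -0.14 and -0.12 in PTU and 0.07, 0.02, 0.07 and -0.07 in PTU+TH. In 7 of the 8 libraries long and short genes deviated in opposite directions, and in PTU+TH mouse 15 both were slightly high. Mouse 9 was lowest and mouse 11 highest in long genes, both of them PTU, and the tilt, the log2 change per 10-fold of length over 13932 genes without the members, ran from -0.26 to 0.20 in PTU and from -0.07 to 0.13 in PTU+TH. Both groups held libraries with a tilt in each direction, and the median log2 fold change of the genes of 500 kb and over was 0.03. Of these genes 4 were called higher and 0 lower (1.78%, beside 2.12% of all genes tested). In the class of 100 to 300 kb, which holds Nrg2, Nrg4 and Egfr, 58 were called higher and 21 lower (4.44%). Among 59 genes with a body of at least 1000 kb, which include Nrg1, Nrg3 and Erbb4, 0 were called and the log2 fold changes ran from -0.39 to 0.92.

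**Figure D2:**
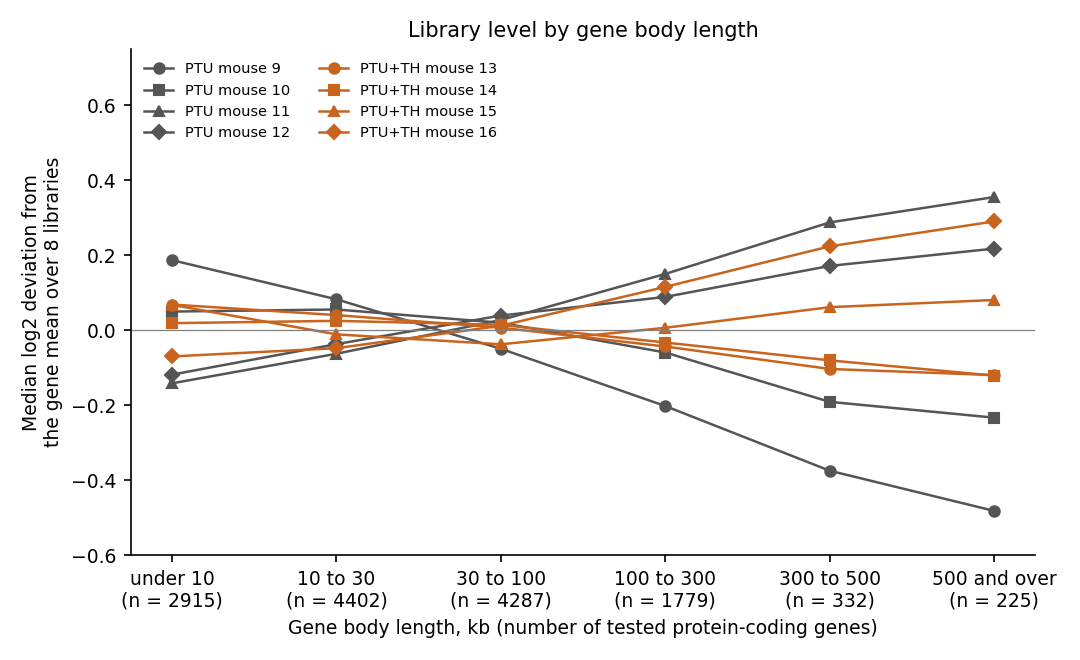
Median log2 deviation of tested protein-coding genes from their own mean over the 8 libraries (y axis) in 6 classes of gene body length in kb (x axis), 1 line per library, grey for PTU and orange for PTU+TH. The lines run from 0.19 to -0.14 in genes under 10 kb, come together between 0.04 and -0.05 at 30 to 100 kb and spread from 0.36 to -0.48 in genes of 500 kb and over, and the extremes at the long end are PTU mice 11 and 9.

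Nrg3 moved between libraries as genes of its length did. Its log2 deviations of -0.57, -0.31, 0.41 and 0.25 in PTU and -0.12, -0.10, 0.11 and 0.33 in PTU+TH lay within 0.05 of the median of 59 other protein-coding genes with nearly its length (80% to 125.0% of it), in each of the 8 libraries. Erbb4 stayed within 0.14 of the median of 60 such genes in 7 libraries and differed from it by -0.26 in PTU+TH mouse 15.

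Nrg1 departed from its length class. Against 64 genes of like length it was 0.08, 0.29, 0.16 and 0.23 higher on the log2 scale in PTU mice 9 to 12, while PTU+TH mice 13 to 16 stood at -0.00, -0.38, -0.09 and -0.27. All 4 PTU values were above all 4 PTU+TH values, which was not so for its plain CPM. Over all genes tested, the groups did not overlap for 10.7% after correction for length with a smooth curve (5.11% lower). Nrg2 stood at -0.32, -0.23, 0.06 and -0.14 against 652 genes of like length in PTU mice 9 to 12, and at 0.00, 0.12, 0.14 and 0.34 after TH, so that PTU mouse 11 was inside the PTU+TH range. Egfr ran the other way, at 0.38, 0.36, -0.02 and 0.01 in PTU and 0.10, -0.29, -0.34 and -0.23 in PTU+TH against 717 genes, so that its groups overlapped once length was taken into account.

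**Figure D3:**
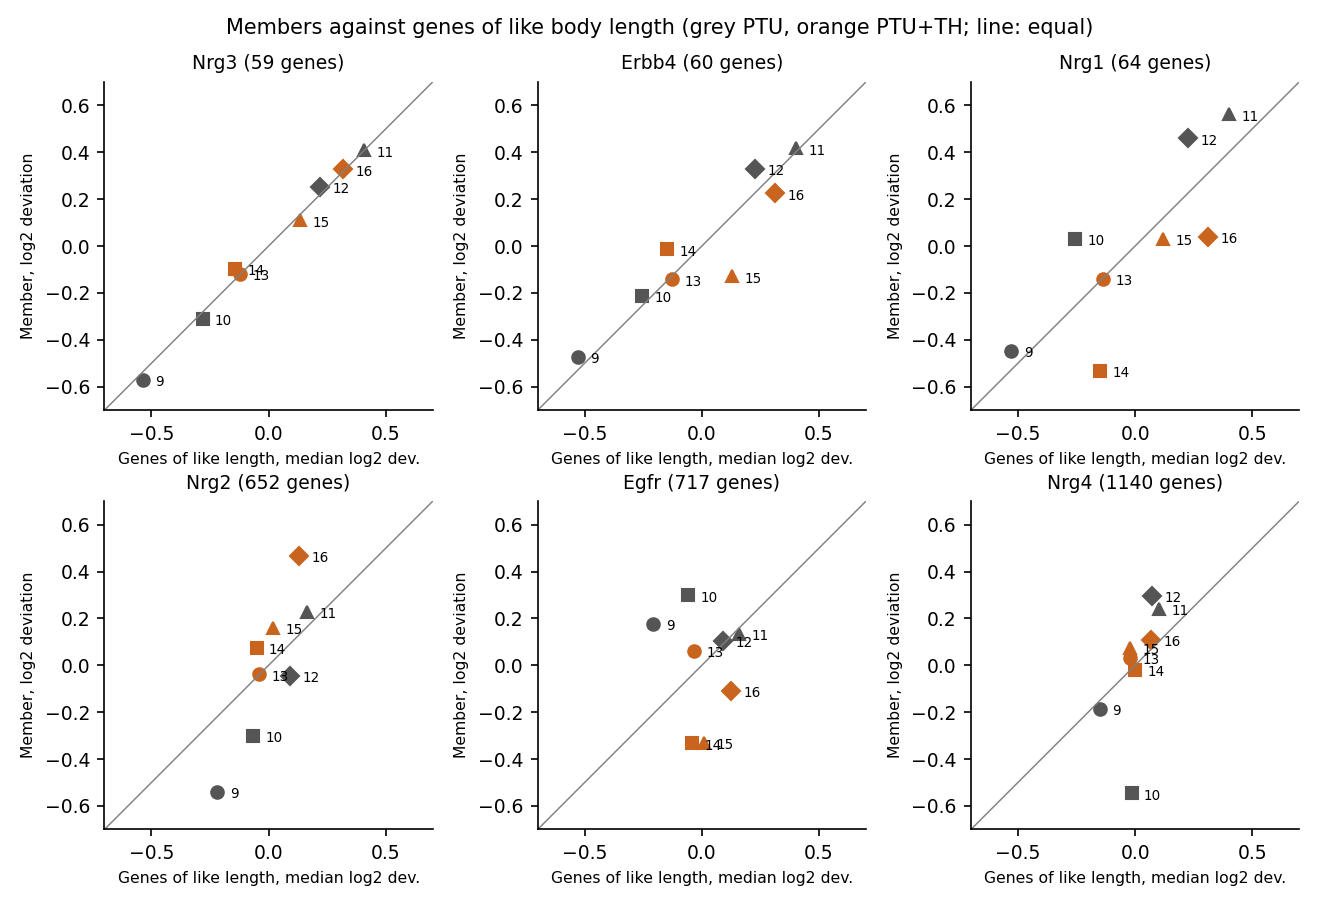
Log2 deviation of 6 members from their mean over the 8 libraries (y axis) against the median deviation of other protein-coding genes with nearly their body length (x axis); each point is a library, grey for PTU and orange for PTU+TH, and the line marks equal values. Nrg3 lies on the line in all 8 libraries, Nrg1 lies above it in the 4 PTU libraries and on or below it in the 4 PTU+TH libraries, and Egfr shows no common slope with its length class.

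A fit with length taken out was one of the alternatives. A smooth curve of each library against gene body length was entered as offsets in the same edgeR test, and 700 of 17355 genes were called (4.03%), 436 higher (2.51%) and 264 lower (1.52%). Of the 8 members 1 was called, Nrg1, and 4 had an unadjusted p under 0.05, beside 16% of all genes tested. The offset of Nrg1 was taken at its whole annotated span, and shorter transcripts were not tried. Nrg1 read 645, 755, 683 and 722 length-corrected CPM in PTU and 608, 466, 582 and 504 in PTU+TH, without overlap (log2 fold change -0.38, SE 0.09, 95% interval -0.57 to -0.19, edgeR adjusted p = 0.0278). The estimate was close to that without the correction, and the standard error was 0.09 in place of 0.21. The log2 fold change stayed between -0.44 and -0.31 when each library was dropped in turn, and the call was not stable: the adjusted p ranged from 0.0187 to 0.10002, with the call lost in 5 of the 8 (without PTU mouse 10, 11 or 12 or PTU+TH mouse 14 or 16), and was 0.170 in the 6 libraries with Y-linked counts, where the log2 fold change was -0.38.

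The intervals of Nrg3 and Erbb4 were narrower with the length offsets. The SD over the 8 libraries went from 0.34 to 0.03 on the log2 scale for Nrg3 and from 0.30 to 0.12 for Erbb4. Corrected Nrg3 averaged 2469 ± 58.5 (PTU) and 2520 ± 32.04 CPM (PTU+TH; SD, n = 4 each), a log2 fold change of 0.03 with a 95% interval of -0.09 to 0.15 (edgeR adjusted p = 0.883). Corrected Erbb4 averaged 4165 ± 113 and 3873 ± 401 CPM (SD, n = 4 each), a log2 fold change of -0.10 with an interval of -0.27 to 0.06 (edgeR adjusted p = 0.575), in which PTU+TH mouse 15 was lowest at 3409 CPM. The Erbb4 value was -0.17 without PTU+TH mouse 14 and -0.05 without mouse 15 (edgeR adjusted p = 0.293 and 0.884). Nrg2 and Egfr did not pass, at 0.30 (edgeR adjusted p = 0.0850) and -0.38 (edgeR adjusted p = 0.128) on the log2 scale. Nrg2 was called without PTU mouse 11 (0.0390) and Egfr without PTU+TH mouse 13 (0.0362). For Egfr the correction widened the SD over the 8 libraries from 0.23 to 0.29.

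**Figure D4:**
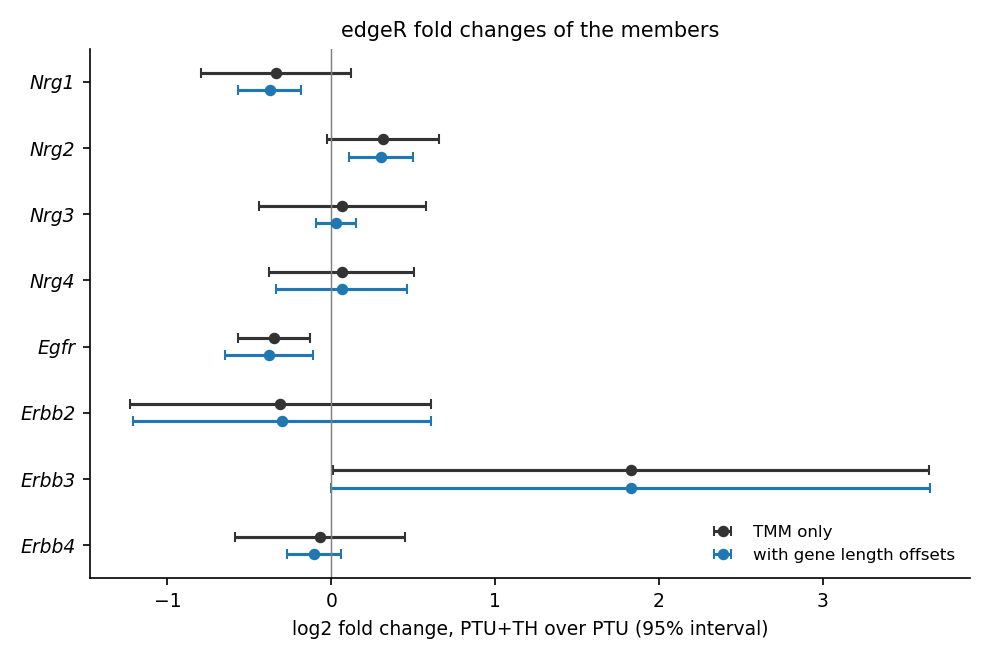
Log2 fold change of each member, PTU+TH over PTU, with its 95% interval from the edgeR fit over all genes, in black with TMM scaling and in blue with gene body length offsets added. The blue intervals are far narrower for Nrg1, Nrg3 and Erbb4, and that of Nrg1 runs from -0.57 to -0.19; those of Erbb2 and Erbb3 hardly change.

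Ratios within a library need no scaling between libraries, and the members of about 1 Mb share the length effect. The ratio of Nrg3 to Erbb4 counts was 0.581, 0.581, 0.619 and 0.590 for PTU mice 9 to 12 and 0.633, 0.587, 0.734 and 0.668 for PTU+TH mice 13 to 16. The groups overlapped through PTU+TH mouse 14 (exact permutation test, two-sided, p = 0.0857, log2 difference 0.14, n = 4 each). This difference was 0.085 without PTU+TH mouse 15, and 0.041 if mice 15 and 16 were both left out. Nrg1 counts per Erbb4 count were 0.156, 0.181, 0.169 and 0.167 in PTU and 0.153, 0.107, 0.171 and 0.134 in PTU+TH, which also overlapped (exact permutation p = 0.143, log2 difference -0.27). Without PTU+TH mouse 14 this difference was -0.145. The ratio of Nrg1 to Nrg3, added after the values were seen, was 0.268, 0.311, 0.273 and 0.284 in PTU and 0.242, 0.182, 0.233 and 0.201 in PTU+TH. All 4 PTU+TH libraries lay below all 4 PTU libraries, with means of 0.284 ± 0.019 and 0.214 ± 0.028 (SD, n = 4 each) and a log2 difference of -0.41. An exact two-sided permutation test gave p = 0.0286, the smallest value that 70 arrangements allow. With any single library dropped it gave 0.0571, the smallest value for 35 arrangements. The ratio is kept as a description, since it was chosen after its values were seen. Nrg3 follows its length class closely, so the ratio restates the length-corrected values of Nrg1.

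Other genes of the pathway were followed in 5 lists of 99 genes, of which 93 were tested. Of these 3 were called higher and 1 lower (4.30%, beside 2.12% of all genes tested), with a median log2 fold change of 0.01 beside -0.01 over all genes. The proteases and helpers that process ErbB ligands held 3 of the 4. Adam10, a protease that sheds membrane proteins, rose from 70.1 ± 4.01 to 90.6 ± 4.85 CPM (log2 fold change 0.37, edgeR adjusted p = 0.0345). Adam19, a metalloprotease known to process neuregulin, rose from 59.4 ± 6.11 to 78.5 ± 5.96 CPM (0.40, edgeR adjusted p = 0.049999, just under the threshold). Rhbdf1, an inactive rhomboid protein that helps the protease Adam17 mature, fell from 22.6 ± 3.85 to 13.9 ± 1.77 CPM (-0.70 on the log2 scale, each ± an SD of n = 4, edgeR adjusted p = 0.0244). Of 13 tested genes in this list, 2 were called higher and 1 lower. Adam17 and Bace1, proteases that cut neuregulins, had log2 fold changes of -0.08 and -0.00 without passing, and the largest uncalled value was 0.45 for Rhbdl3.

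**Figure D5:**
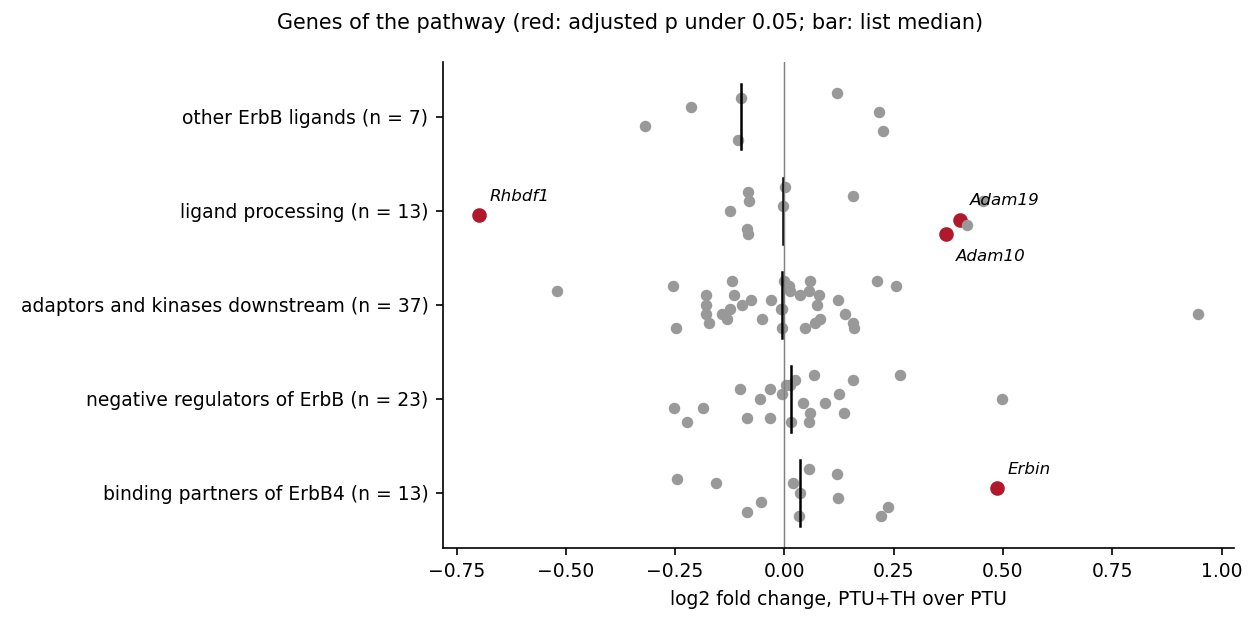
Log2 fold change, PTU+TH over PTU (x axis), of the 93 tested genes in 5 lists around the ErbB pathway; each point is a gene, spread vertically for legibility, red where the edgeR adjusted p was under 0.05, and the bar is the median of the list. The list medians lie between -0.10 and 0.03, and the called genes are Adam10, Adam19, Erbin and Rhbdf1.

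Erbin, a PDZ protein that binds ErbB2 and lies at synapses, was the called gene among 13 binding partners of ErbB4, which include synaptic scaffolds and, with Yap1, Tab2 and Ncor1, partners of its cleaved intracellular domain, rising from 95.7 ± 14.2 to 134 ± 10.7 CPM (0.49 on the log2 scale, edgeR adjusted p = 0.0407). In that list 1 was called higher and 0 lower. Dlg4, the scaffold PSD-95, had 0.06 without passing, and the lowest value was -0.25 for Sntb1. The 7 tested ligands outside the neuregulins had 0 calls, with values from -0.32 for Egf to 0.22 for Tmeff1. Among 37 adaptors and kinases 0 were called, with values from -0.52 for Shc4 to 0.95 for Stat5a, and among 23 negative regulators 0 were called, from -0.25 for Dusp6 to 0.50 for Lrig3. An unadjusted edgeR p under 0.05 was found for 0 of the 7, 3 of the 37 and 3 of the 23 genes, for 4 of 13 in ligand processing and 2 of 13 among the ErbB4 partners, and so for 12 of 93 in all, beside 12.8% of all genes tested. The 4 calls were sensitive to single libraries: without any of the 4 PTU+TH libraries in turn 0 of the 4 kept an adjusted p under 0.05, and the adjusted p reached 0.115 for Adam10, 0.167 for Adam19, 0.0864 for Rhbdf1 and 0.121 for Erbin when single libraries were dropped. The log2 fold changes in those fits ran from 0.34 to 0.41 for Adam10, 0.35 to 0.46 for Adam19, -0.76 to -0.57 for Rhbdf1 and 0.40 to 0.56 for Erbin. All 4 calls were also lost with the presence of Y-linked counts as a covariate, in the 6 libraries with such counts and with TMM from genes of 100 kb and over (edgeR adjusted p from 0.0734 to 0.467). With that covariate the log2 fold changes were 0.30, 0.41, -0.63 and 0.55 for Adam10, Adam19, Rhbdf1 and Erbin. With library totals only, Erbin alone was called. Adam19 was lost with RLE scaling (edgeR, 0.0517) and with limma voom (0.0595), and Adam10 with oligodendrocyte markers as a covariate (edgeR, 0.0560). With the length offsets, 4 pathway genes were called, and they were the same 4. In that fit Adam19, Rhbdf1 and Erbin passed in all 8 fits with a library dropped and Adam10 in 2 of 8, while in the 6 libraries with Y-linked counts Erbin alone passed (edgeR adjusted p = 0.0110).

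The genes most like each member across the 8 libraries were named by the Pearson r of log2 CPM among 10582 genes with at least 5 CPM on average. Nrg3 was most like Atxn1, Magi2 and Nrxn3 (r of 0.997, 0.996 and 0.996), the last a presynaptic adhesion gene with a body of 1612 kb. Erbb4 was most like Plekha5, Cntn5 and Trhde (0.991, 0.990 and 0.989). Values over 0.9 were reached by 536 genes for Nrg3 and 449 for Erbb4, against 76 for Nrg1, 33 for Egfr and 18 for Nrg4, and the points share the length tilt of the libraries. Nrg1 was nearest to Klhl3, Sh3d19 and Prcc (0.978, 0.977 and 0.975), and Nrg2 to Tmem241, Shisa9 and Cacng2 (0.991, 0.990 and 0.990), with 331 genes over 0.9. Egfr was nearest to Ppfibp2, Sh3bp2 and Nme5 (0.980, 0.970 and 0.963), of which Sh3bp2 fell in PTU+TH (log2 fold change -0.70, edgeR adjusted p = 0.0372), and Nrg4 to Nt5e, Wnt5b and Paqr5 (0.978, 0.954 and 0.939).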

How the data were processed

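The deposited files give raw counts for each gene symbol, 1 file per library, with no header and 0 rows that name no gene. Per the submitters' processing notes the authors used Bowtie2 2.5.3 and the builds mm10 and GRCm38. The counting program, its annotation, strand and introns are not given in the sources used here. All 55341 symbols matched GENCODE M21 (GRCm38), which gave positions and lengths. Per the labels' protocols, cDNA was made with SMART-Seq v4 and libraries with Nextera XT. Groups were taken from the sample titles. Chi-square per degree of freedom between replicates was 8.87 to 79.8, so none is a copy.

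The test was the one of edgeR 4.0.16 under R 4.3.3 (filterByExpr, TMM, robust quasi-likelihood, two-sided, Benjamini-Hochberg over all genes kept, threshold 0.05). SE is the log2 fold change over the root of F. Deviations used log2 CPM with a prior count of 2. Length offsets came from a lowess curve (span 0.3) per library. DESeq2 1.42.0 and limma 3.58.1 were alternatives. Scripts were tested on simulated data. Genes named were the members, called pathway genes, the extremes of each list and the 3 genes most like each member above 5 CPM, plus a few chosen after their values were seen (Adam17, Bace1, Dlg4, and the interneuron class markers). Members and lists were chosen with earlier results of these data known.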

Additional observations from a re-analysis of the deposited data

Results flagged for a closer look

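In 44 sets of 4 libraries (members, ratios and marker sums by group), a single library far from the other 3 was sought, and 1 was found where chance gives about 2.2. The summed GABAergic markers of PTU mouse 9 were at 2883 CPM against 2448 to 2485 CPM in the other PTU libraries. That library was also the lowest in long genes, and its part in the results of the members is given by the fits without it.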

How the results depend on the processing

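Of the 17355 genes tested, 368 were called. The number was 748 with DESeq2, 700 with gene body length offsets, 159 with TMM taken from genes of 100 kb and over, 129 with Y-linked counts as a covariate, 58 in the 6 libraries with such counts, and 182 to 499 when each library was left out. Of these settings the length offsets called 1 member (Nrg1) and the others 0. Of the pathway genes 4 were called, 1 with library totals only, 0 with the long-gene TMM, with the Y-linked covariate and in the 6 libraries, and 0 to 3 with a library left out. With length offsets, 445 to 798 genes and 0 to 2 members were called when each library was left out, and 230 genes, 0 members and 1 pathway gene in the 6 libraries. Signs turned only in estimates near 0 or with few counts. Nrg3 was -0.11 with the Y-linked covariate and -0.11 in the 6 libraries, and -0.077 to 0.23 with a library left out. Nrg4 ran from -0.076 to 0.19, Erbb2 from -0.57 to 0.10 and Erbb4 from -0.21 to 0.072. Erbb4 was 0.16 with oligodendrocyte markers as a covariate and 0.0016 with excitatory markers. With length offsets, Nrg4 ran from -0.068 to 0.16, Erbb2 from -0.56 to 0.094, and Erbb4 was 0.0045 in the 6 libraries. The Nrg1 to Nrg3 ratio was -0.47 to -0.34 on the log2 scale with a library left out and -0.44 in the 6 libraries. The causes of these changes were not tested. Erbb3 had too few counts for the filter of 10 counts in each library. The length-corrected fits with libraries left out and the Nrg1 to Nrg3 ratio were chosen after seeing the data. No paired analysis was possible because mouse numbers 9 to 12 and 13 to 16 are not shared between the groups. Depth limits Erbb2 and Erbb3, which rest on at most 55 and 37 counts.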
